A study of Mus musculus with 18 samples.

Results

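Megalin, cubilin and the proteins that work with them form the receptor system by which the kidney's proximal tubule takes filtered proteins back from the urine. The 7 genes described here are Lrp2, Cubn, Amn, Dab2, Clcn5, Lrpap1 and Fcgrt, chosen by name from that system and found as 7 of the 54848 rows of the deposited expression table. Each matched 1 row, and all 7 passed the filter on low values, an FPKM (fragments scaled to gene length and library size) of 1 or more in 3 or more libraries, which left 15278 genes for testing.

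The study sequenced RNA from mouse kidney after a kidney transplant that included cold storage of the organ and after sham surgery, each at day 1, day 7 and day 14. There were 18 libraries, 3 in each of 6 groups, and each day had sham libraries of its own. All groups carry the genotype label WT, and RNA was taken from renal cortex with Trizol. No source used here gives strain, sex, age, donor and recipient or the length of cold storage, and further label fields naming a rat proximal tubule cell line, streptozotocin diabetes and kidney injury by ischemia with reperfusion go against the titles, from which the groups were taken. Since no label ties the libraries to separate animals, the p-values describe the spread between libraries, which may be technical.

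Megalin, the product of Lrp2, is a very large receptor of the LDL receptor family that sits in clathrin-coated pits below the brush border. Cubilin, the product of Cubn, has no membrane-spanning part and reaches the cell surface bound to amnionless, the product of Amn. Together they bind albumin, vitamin carriers, hormones and small proteins that pass the glomerular filter, and their loss in patients or mice leads to protein in the urine. Dab2 encodes the adaptor that links megalin's tail to the coat, Clcn5 an endosomal chloride-proton exchanger whose loss causes Dent disease, Lrpap1 a chaperone of the endoplasmic reticulum that keeps ligands off megalin while it folds, and Fcgrt the neonatal Fc receptor, which carries albumin and immunoglobulin G away from degradation.

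At day 1 after transplantation, the 3 genes of the receptor complex, Lrp2, Cubn and Amn, and the chaperone gene Lrpap1 fell, to between 23.5% and 41.4% of the sham mean. The adaptor Dab2 and the receptor Fcgrt did not pass the test, and the exchanger Clcn5 stood at 137% of sham. At day 7 and day 14 Lrp2 and Lrpap1 were still lower than sham, at 48.5% to 57.5% of it. Cubn and Amn stood at 70.5% to 78.9% of sham and did not pass the test at those days. Fcgrt fell at day 7, when it stood at 63.1% of sham.

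Promoter sequence is shown for the 4 genes that fell together at day 1, from RefSeq's GRCm38.p6 table, each window reaching from 250 bases before the annotated start to 50 after it. Capitals mark matches on either strand to 6 short motifs chosen after it was seen which genes fell: the GC box GGGCGG, the CCAAT box, the TATA box TATAAA, the E-box CACGTG, and core sites for the tubular factors HNF1 (GTTAAT) and HNF4 (CAAAGT). The windows are those of Lrp2 at chr2:69585980-69586279 on the minus strand, Cubn at chr2:13491827-13492126 on the minus strand, Amn at chr12:111270846-111271145 on the plus strand and Lrpap1 at chr5:35105650-35105949 on the minus strand.
Lrp2: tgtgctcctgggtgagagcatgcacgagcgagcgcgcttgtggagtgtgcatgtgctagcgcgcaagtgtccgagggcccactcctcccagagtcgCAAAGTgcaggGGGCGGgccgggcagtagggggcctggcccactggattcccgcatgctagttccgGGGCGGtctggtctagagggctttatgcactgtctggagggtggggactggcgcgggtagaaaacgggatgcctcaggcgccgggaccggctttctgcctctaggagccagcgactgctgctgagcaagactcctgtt
Cubn: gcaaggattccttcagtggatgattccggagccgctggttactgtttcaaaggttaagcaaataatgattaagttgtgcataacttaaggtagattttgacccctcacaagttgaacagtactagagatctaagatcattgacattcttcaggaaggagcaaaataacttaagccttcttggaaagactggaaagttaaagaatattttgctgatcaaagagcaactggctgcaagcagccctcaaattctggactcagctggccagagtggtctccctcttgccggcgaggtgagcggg
Amn: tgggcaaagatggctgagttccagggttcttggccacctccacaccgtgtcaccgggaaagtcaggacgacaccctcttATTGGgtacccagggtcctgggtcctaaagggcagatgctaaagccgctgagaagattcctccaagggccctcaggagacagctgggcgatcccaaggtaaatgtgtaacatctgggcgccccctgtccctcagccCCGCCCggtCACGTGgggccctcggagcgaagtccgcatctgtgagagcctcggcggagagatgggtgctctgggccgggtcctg
Lrpap1: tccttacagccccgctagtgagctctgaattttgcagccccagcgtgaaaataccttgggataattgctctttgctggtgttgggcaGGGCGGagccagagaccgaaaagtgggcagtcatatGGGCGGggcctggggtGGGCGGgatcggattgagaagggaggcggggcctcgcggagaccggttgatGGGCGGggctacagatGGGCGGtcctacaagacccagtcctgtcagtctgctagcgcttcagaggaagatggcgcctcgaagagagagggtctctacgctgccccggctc
The windows differ in composition, with 65% G and C for Lrp2, 62.3% for Amn, 61.3% for Lrpap1 and 44.3% for Cubn, against a median of 52.7% over the 32851 windows of the table. The GC box occurs 2 times for Lrp2, 1 time for Amn and 5 times for Lrpap1, and 35.7% of all windows hold it. The Lrp2 window also has 1 HNF4 site (14.4% of all windows), and that of Amn has 1 CCAAT box (37.4%) and 1 E-box (7.15%). Cubn's window has no capital, which says only that these letters are not in it. No motif searched is shared by the windows of all 4 genes.

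Lrp2 lies on chromosome 2 at 69424340 to 69586065, minus strand, in the GENCODE M21 annotation of GRCm38. At day 1 it measured 241, 194 and 273 FPKM in the 3 sham libraries and 80.4, 51.6 and 34.8 FPKM in the 3 transplant libraries. Every transplant library lay far below every sham library, and the group means were 236 ± 39.7 and 55.6 ± 23.1 FPKM (SD, n = 3). The log2 fold change on the log2(FPKM + 1) scale was -2.13 ± 0.22 (SE, limma adjusted p = 6.49e-07 over all tested genes). Only 1.11% of tested genes had a lower fold change. In these bulk libraries, fewer cells of a type and less RNA per cell cannot be told apart.

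At day 7 Lrp2 measured 276, 234 and 189 FPKM in sham and 117, 117 and 104 FPKM in transplant. At day 14 it measured 278, 273 and 239 FPKM in sham and 123, 167 and 162 FPKM in transplant. The groups stayed apart at both days, and the 3 transplant libraries of day 7 lay close together. The log2 fold change was -1.02 ± 0.22 at day 7 and -0.81 ± 0.22 at day 14 (SE, limma adjusted p = 0.0016 and 0.0118). Without transplant replicate 1 of day 14, the lowest of its group, the day 14 value was -0.67 and did not pass the test (limma adjusted p = 0.0586). The effect at day 14 was smaller than at day 1 by 1.32 ± 0.32 on the log2 scale (SE, limma adjusted p = 0.0114 for the difference), and the difference of day 7 from day 1, 1.11, did not pass (limma adjusted p = 0.0531).

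Cubn, on the same chromosome at 13276338 to 13491813, minus strand, measured 75.0, 53.9 and 70.9 FPKM in sham and 31.9, 12.5 and 9.45 FPKM in transplant at day 1. The transplant libraries were all lower than sham but unlike one another, with replicate 1 at more than the other two together. The log2 fold change was -2.01 ± 0.28 (SE, limma adjusted p = 2.12e-05). At day 7 Cubn measured 79.2, 66.6 and 50.1 FPKM in sham and 41.4, 49.7 and 47.0 FPKM in transplant. At day 14 it measured 76.2, 73.7 and 69.5 FPKM in sham and 50.4, 58.8 and 63.9 FPKM in transplant. Transplant libraries again lay below sham ones, by a narrow margin at day 7, and the fold changes of -0.47 and -0.34 did not pass the test (limma adjusted p = 0.186 and 0.396). The fit takes Cubn's spread from all 6 groups, the uneven day 1 transplant libraries included, and without transplant replicate 1 of day 1 the day 7 value, still -0.47, passed (limma adjusted p = 0.0321).

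The effect on Cubn was smaller at day 14 than at day 1 by 1.66 ± 0.40 on the log2 scale (SE, limma adjusted p = 0.0121 for the difference). It was smaller at day 7 than at day 1 by 1.53 ± 0.40 (limma adjusted p = 0.0352). The day 7 difference did not pass with median-of-ratios scaling (1.42, limma adjusted p = 0.0674), nor without any single one of 9 of the 12 libraries of those days, which are replicates 1 and 3 of sham day 1, 2 and 3 of transplant day 1, 2 and 3 of sham day 7 and all 3 of transplant day 7 (1.2 to 1.6, limma adjusted p of 0.0529 to 0.0967).

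Amn, at 111271095 to 111276426 on the plus strand of chromosome 12, is the least abundant of the receptor genes. At day 1 it measured 22.6, 30.5 and 23.8 FPKM in sham and 10.3, 12.6 and 8.93 FPKM in transplant. The groups did not overlap, and the log2 fold change was -1.20 ± 0.21 (SE, limma adjusted p = 0.000202). At day 7 it measured 22.8, 17.5 and 29.4 FPKM in sham and 15.5, 16.5 and 17.95 FPKM in transplant, and at day 14 22.1, 26.6 and 14.5 FPKM in sham and 13.7, 16.1 and 18.5 FPKM in transplant. At both later days 1 sham library lay within the transplant range, and the fold changes of -0.43 and -0.34 did not pass the test (limma adjusted p = 0.109 and 0.25). Without sham replicate 2 of day 7, which was that library, the day 7 value was -0.61 and passed (limma adjusted p = 0.0442).

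Lrpap1, on chromosome 5 at 35091501 to 35105766, minus strand, had the smallest standard error of the 4 genes that fell at day 1. At day 1 it measured 125, 109 and 113 FPKM in sham and 47.0, 46.4 and 29.2 FPKM in transplant. At day 7 it measured 114, 94.99 and 101 FPKM in sham and 55.4, 57.4 and 54.4 FPKM in transplant. At day 14 it measured 95.9, 106 and 105 FPKM in sham and 48.8, 69.5 and 58.4 FPKM in transplant. No transplant library reached the lowest sham library at any day. The log2 fold changes were -1.51 ± 0.16, -0.88 ± 0.16 and -0.80 ± 0.16 (SE, limma adjusted p = 8.09e-07, 0.000391 and 0.00132). The difference of day 14 from day 1, 0.71, did not pass (limma adjusted p = 0.0553), although under median-of-ratios scaling it did (0.76, limma adjusted p = 0.0394).

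**Figure D1:**
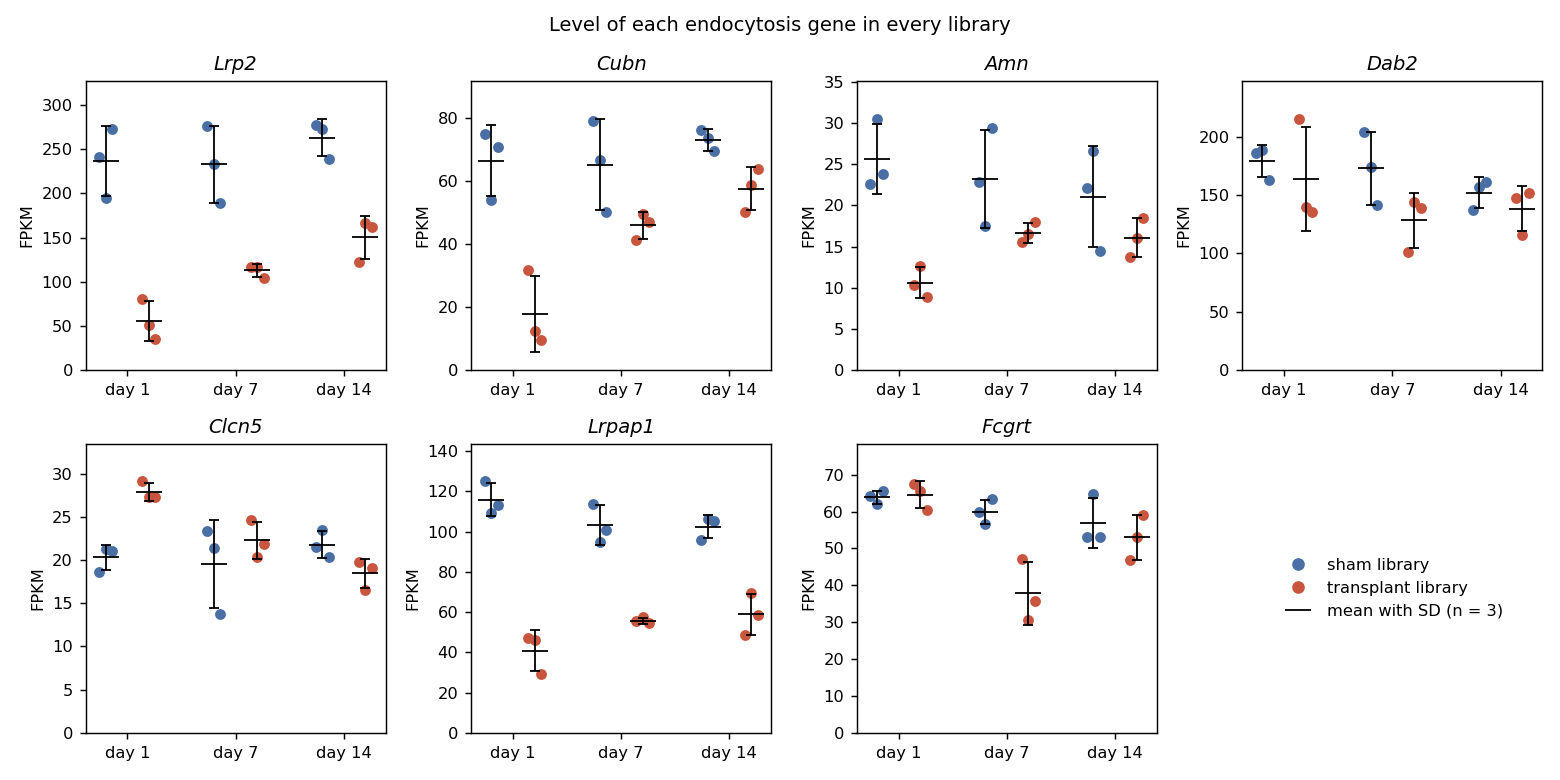
FPKM (vertical axis, from 0) of each of the 7 genes in every library, by day, with blue points for sham, red points for transplant and black lines for the mean and SD of 3 libraries. Lrp2, Cubn and Lrpap1 are lower in all 3 transplant libraries than in all 3 sham libraries at each day, while Dab2 overlaps between the groups at each day.

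Dab2, on chromosome 15 at 6299788 to 6440712, plus strand, was in sham the second most abundant of the 7 genes. At day 1 it measured 186, 188 and 163 FPKM in sham and 215, 139.9 and 136 FPKM in transplant. Transplant replicate 1 was above all sham libraries and the other two were below them. At day 7 it measured 204, 174 and 141 FPKM in sham and 101, 144 and 139 FPKM in transplant, and at day 14 137, 157 and 162 FPKM in sham and 147, 116 and 152 FPKM in transplant. The groups overlapped at every day, and the fold changes of -0.16, -0.43 and -0.14 did not pass the test (limma adjusted p = 0.521, 0.0699 and 0.613). At day 7 Dab2 passed without transplant replicate 1 of day 1 (-0.43, limma adjusted p = 0.0371) and without sham replicate 3 of day 7 (-0.57, limma adjusted p = 0.0371). The 95% interval of the day 1 log2 fold change ran from -0.55 to 0.23, so it does not reach the values of Lrp2 or Cubn.

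Clcn5, on the X chromosome at 7153810 to 7319358, minus strand, measured 18.7, 21.3 and 21.0 FPKM in sham and 29.1, 27.3 and 27.3 FPKM in transplant at day 1. All 3 transplant libraries were above sham, and the log2 fold change was 0.44 ± 0.16 (SE, limma adjusted p = 0.0346). That rise is close to 0.31, the median over all tested genes at day 1, and under median-of-ratios scaling, which sets that median near 0, the value was 0.07 (limma adjusted p = 0.781). It also did not pass without any single one of the 6 day 1 libraries (0.38 to 0.47, limma adjusted p of 0.0551 to 0.115). At day 7 it measured 23.4, 21.4 and 13.7 FPKM in sham and 24.6, 20.4 and 21.8 FPKM in transplant. At day 14 it measured 21.5, 23.4 and 20.4 FPKM in sham and 19.7, 16.5 and 19.1 FPKM in transplant. The groups overlapped at day 7, and at day 14 the transplant libraries were slightly below sham. The log2 fold changes, 0.21 at day 7 and -0.23 at day 14, did not pass (limma adjusted p = 0.297 and 0.301), and the day 7 value was -0.26 under median-of-ratios scaling and -0.01 without sham replicate 3. On the TPM scale the day 7 value was 0.50 and passed (limma adjusted p = 0.0198).

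Fcgrt, on chromosome 7 at 45092990 to 45103851, minus strand, followed another course. At day 1 it measured 64.1, 62.0 and 65.5 FPKM in sham and 67.5, 65.6 and 60.5 FPKM in transplant. At day 7 it measured 59.8, 56.8 and 63.3 FPKM in sham and 47.3, 30.6 and 35.7 FPKM in transplant. At day 14 it measured 53.1, 64.8 and 53.1 FPKM in sham and 46.9, 53.1 and 59.1 FPKM in transplant. The groups overlapped at day 1 and day 14 and were fully apart at day 7, with replicate 2 the lowest. The log2 fold changes were 0.01, -0.67 ± 0.14 and -0.10, of which only that of day 7 passed (limma adjusted p = 0.955, 0.00127 and 0.635), and the day 1 value was -0.36 with median-of-ratios scaling (limma adjusted p = 0.0663). The difference of day 7 from day 1, -0.69 ± 0.20, did not pass (SE, limma adjusted p = 0.0614), but did with median-of-ratios scaling (-0.79, limma adjusted p = 0.0366).

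Over the 7 genes, 4 were lower at day 1, where 9.56% of all tested genes were called lower, and 1 was higher, where 29.6% were called higher. At day 7, 3 were lower (6.01% of all tested genes) and 0 higher (35.5%), and at day 14, 2 were lower (5.12%) and 0 higher (22.3%). All 3 transplant libraries lay below all 3 sham libraries for 4 of the 7 genes at day 1, 4 at day 7 and 4 at day 14, against 11.9%, 8.74% and 7.32% of all tested genes. The effect differed between day 7 and day 1 for 1 of the 7 (4.37% of all tested genes), between day 14 and day 1 for 2 (10.3%), and between day 14 and day 7 for 0 (0.615%). Without adjustment, limma called 1 gene in that last comparison, Fcgrt, beside 1825 of all 15278 tested genes. No gene of the 7 differed between sham groups of different days (limma adjusted p = 1), and without adjustment the count was 0 too. Over all tested genes the unadjusted count was 375 (days 7 and 1), 570 (days 14 and 7) and 746 (days 14 and 1).

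The deposited scale leaves a general shift upward, with medians over all tested genes of 0.31, 0.41 and 0.27 at the 3 days. Median-of-ratios scaling took these to 0.03, 0.02 and 0.02, and every one of the 7 genes moved down with it. Under it, 5 of the 7 were lower at day 1 (Dab2 joined at -0.54, limma adjusted p = 0.0486), 6 at day 7 (Cubn, Amn and Dab2 joined at -0.96, -0.90 and -0.92, limma adjusted p of 0.00226 to 0.0231) and 5 at day 14 (Amn, Clcn5 and Fcgrt joined at -0.65, -0.54 and -0.42, limma adjusted p of 0.019 to 0.0439), and none was higher. Over all tested genes this scaling called 15.5%, 12.8% and 11.1% lower and 14.7%, 11.6% and 11.5% higher at day 1, day 7 and day 14. The falls of Lrp2 and Lrpap1 at the 3 days, of Cubn and Amn at day 1 and of Fcgrt at day 7 passed under both scalings.

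**Figure D2:**
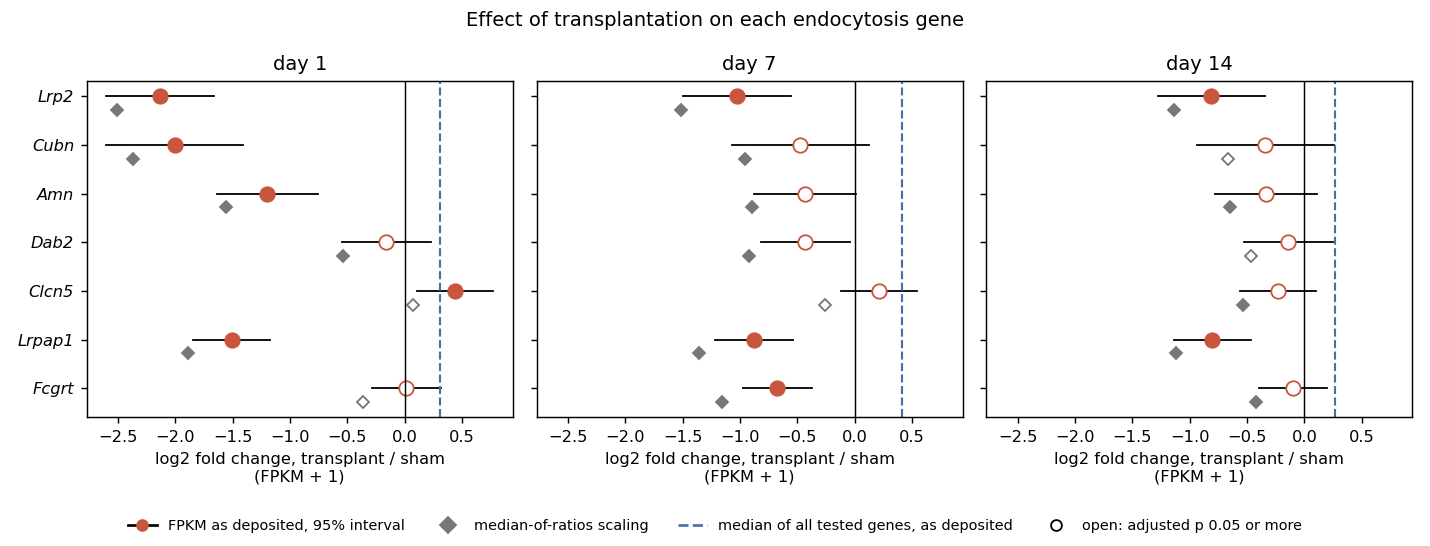
Log2 fold change of transplant over sham (horizontal axis) for each gene at day 1, day 7 and day 14, as circles with 95% intervals on the deposited FPKM scale and as diamonds under median-of-ratios scaling, filled where the limma adjusted p was below 0.05. Lrp2 and Lrpap1 are filled at all 3 days, and each diamond lies to the left of its circle, by about the median of all genes that the dashed line marks.

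In sham kidneys the 7 genes had unequal levels, which did not change detectably between days. Over the 9 sham libraries the lowest, median and highest FPKM were 189, 241 and 278 for Lrp2 and 137, 163 and 204 for Dab2. They were 94.99, 106 and 125 for Lrpap1, 50.1, 70.9 and 79.2 for Cubn and 53.1, 62.0 and 65.5 for Fcgrt. Amn and Clcn5 were lowest, at 14.5, 22.8 and 30.5 and at 13.7, 21.3 and 23.4. Since FPKM is per length, levels can be set side by side, and in this order of means the ranges of Lrp2 and Dab2, of Cubn and Fcgrt and of Amn and Clcn5 overlapped, while those of Dab2 and Lrpap1, of Lrpap1 and Cubn and of Fcgrt and Amn did not. Lrp2 ranked 152nd by mean sham FPKM and Clcn5 2518th among all genes.

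The balance between the genes was compared inside each library as the ratio of each gene's FPKM to that of Lrp2, which no scaling of whole libraries can move. The 6 ratios share Lrp2 and are therefore not independent of each other. An exact permutation test within days used 8000 arrangements, two-sided, with p-values adjusted over the 6 ratios. Within a single day 3 against 3 libraries cannot give an exact p below 0.1.

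The 3 genes that did not fall with Lrp2 at day 1 had the largest log2 differences of the ratio at that day. That order largely follows from how they were grouped, since a ratio to Lrp2 grows when Lrp2 alone falls. Their differences in the mean over the 3 days were the largest too, but that mean includes day 1, as do the tests on it. At day 7 the log2 difference of Fcgrt, 0.34, was smaller than those of Cubn and Amn, 0.55 and 0.58. Those of Dab2 and Clcn5 at day 7 were 0.60 and 1.25. At day 14 Dab2, Clcn5 and Fcgrt were at 0.68, 0.57 and 0.71, beside 0.47 and 0.46 for Cubn and Amn. Lrpap1 was at 0.14 at day 7 and 0.003 at day 14. Dab2 stood at 0.779 ± 0.186 of Lrp2 in sham and 3.09 ± 0.695 in transplant at day 1 (SD, n = 3), at 0.743 ± 0.0047 and 1.14 ± 0.246 at day 7, and at 0.581 ± 0.092 and 0.944 ± 0.253 at day 14. All transplant libraries lay above all sham libraries of the same day. At day 1 the FPKM of Dab2 was below that of Lrp2 in sham and above it in transplant. The mean log2 difference over the 3 days was 1.09 (exact permutation p = 0.00025, the smallest these arrangements can give, adjusted p = 0.00075). Clcn5 stood at 0.088 ± 0.0189 of Lrp2 in sham and 0.559 ± 0.214 in transplant at day 1, with a mean log2 difference over the days of 1.48 (exact permutation p = 0.00025, adjusted p = 0.00075). Its transplant libraries were above sham at every day. Fcgrt stood at 0.275 ± 0.0404 and 1.28 ± 0.449 at day 1, and its mean log2 difference was 1.08 (exact permutation p = 0.0005, adjusted p = 0.001), with an overlap of the groups at day 7.

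In the mean over the 3 days, day 1 included, the receptor partners and the chaperone changed less against Lrp2. The ratio of Cubn to Lrp2 was 0.282 ± 0.026 in sham and 0.303 ± 0.082 in transplant at day 1 (SD, n = 3), where the groups overlapped. At day 7 it was 0.279 ± 0.012 and 0.409 ± 0.0496, and at day 14 0.278 ± 0.0111 and 0.386 ± 0.0304, with every transplant library above every sham library. The sham ratio was thus nearly the same at all days, and over the 3 days the log2 difference was 0.36 (exact permutation p = 0.00475, adjusted p = 0.00713). Amn to Lrp2 overlapped between groups at each day, and its mean log2 difference was 0.64 (exact permutation p = 0.00725, adjusted p = 0.0087). Lrpap1 to Lrp2 had transplant above sham at day 1 only, at 0.774 ± 0.167 against 0.498 ± 0.076, and 0.391 ± 0.0287 against 0.392 ± 0.0482 at day 14. Its mean log2 difference of 0.26 (exact permutation p = 0.0433, adjusted p = 0.0433) did not pass when any single one of 13 of the 18 libraries was left out (0.21 to 0.29, adjusted p of 0.0508 to 0.0912).

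**Figure D3:**
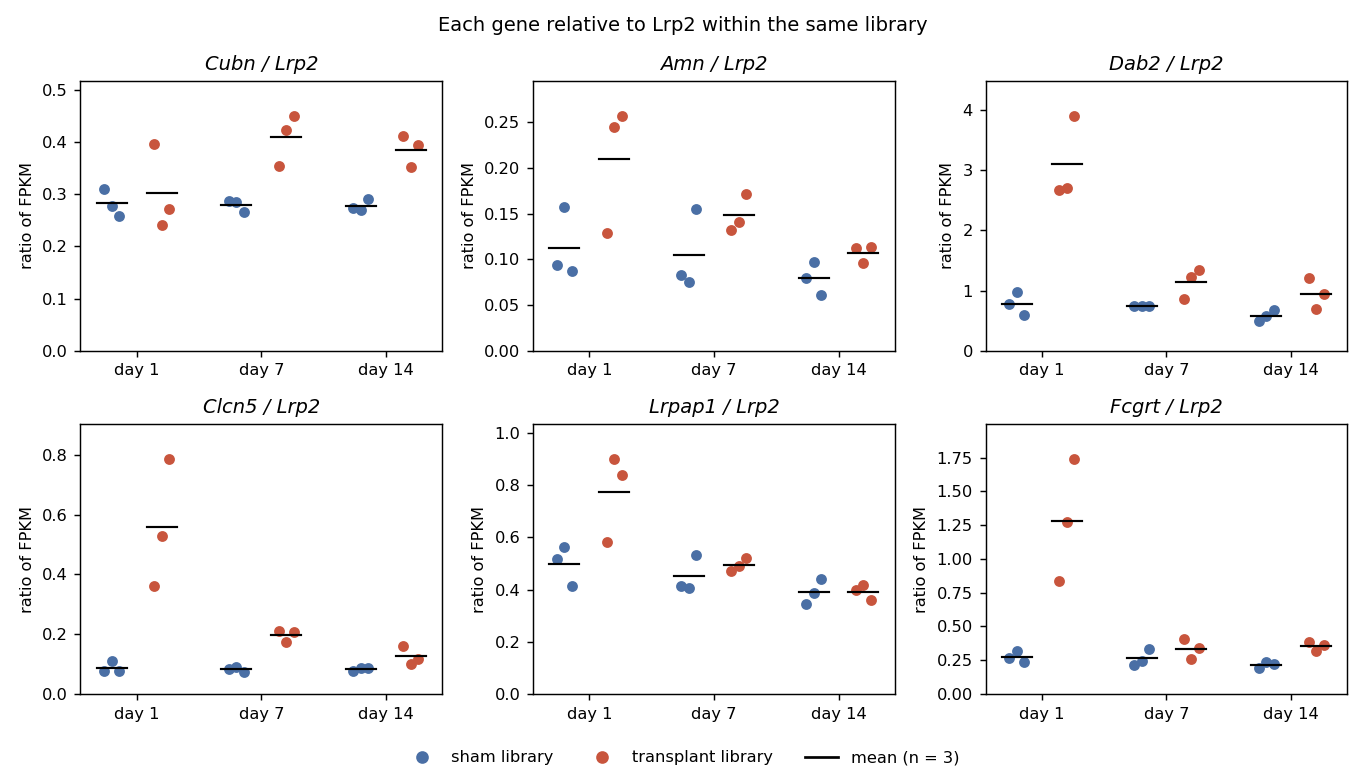
FPKM of each gene divided by that of Lrp2 in the same library (vertical axis, from 0), by day, with blue points for sham, red points for transplant and black lines for the mean of 3 libraries. Dab2, Clcn5 and Fcgrt stand highest over Lrp2 in the transplant libraries of day 1, and Cubn in those of day 7 and day 14.

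Genes that mark proximal tubule cells moved with the receptor genes. Of 25 such markers, Lrp2 and Cubn not included, 24 fell and 0 rose at day 1, 17 fell and 1 rose at day 7, and 13 fell and 1 rose at day 14, with median log2 fold changes of -1.94, -1.29 and -0.55. Of all tested genes, 9.56%, 6.01% and 5.12% fell and 29.6%, 35.5% and 22.3% rose. Under median-of-ratios scaling 25, 21 and 15 markers were lower and 0 higher. With it 15.5%, 12.8% and 11.1% of all tested genes were lower and 14.7%, 11.6% and 11.5% higher. All 25 were above 0 in every library, and their summed level was 25834 to 33233 FPKM in the 9 sham libraries, 7724 to 10859 in transplant at day 1, 4469.5 to 4731 at day 7 and 4563 to 6299.6 at day 14, a sum in which, in sham, Kap, an abundant androgen-regulated gene, takes the most. In transplant at day 14 Kap averaged 299 FPKM. Slc34a1, the sodium-phosphate cotransporter of the brush border, measured 1407 to 1562 FPKM in sham and 164 to 300 FPKM in transplant at day 1, a change of -2.70 ± 0.18 on the log2 scale (SE, limma adjusted p = 4.13e-09). Hnf4a, a transcription factor of the mature tubule, was at -1.07 ± 0.23 (SE, limma adjusted p = 0.00106). The part of these changes in the falls of the receptor genes was not tested.

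The mean log2(FPKM + 1) of the 25 markers gives a reference level in each library. At day 1 Lrp2 differed from it in transplant by -0.21 relative to sham and Cubn by -0.08, and for both the groups overlapped. Amn was 0.73 above it, with overlap, and Lrpap1 0.42 above it, without. Clcn5, Fcgrt and Dab2 were 2.37, 1.94 and 1.77 above it, with every transplant library above every sham library. At day 7 and day 14 all 7 genes stood higher against the markers in every transplant library than in any sham library of that day, by 0.42 and 0.28 for Lrp2, 0.57 and 0.29 for Lrpap1, and 0.75 to 1.7 for the others. That depends on the reference. In a comparison chosen after seeing the data, the markers' median log2 change from the sham mean of the day took the place of their mean, so that the few markers with the deepest falls weigh less. Against it, Lrp2 overlapped sham at day 7 (0.22), and at day 14 it was lower in every transplant library than in any sham library (-0.19), while Lrpap1 was at -0.18 with overlap. The other 5 genes were 0.28 to 0.52 above it at day 14, Cubn and Fcgrt without overlap and Amn, Dab2 and Clcn5 with it. At day 1 the direction and the overlap were the same for all 7 genes against either reference.

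**Figure D4:**
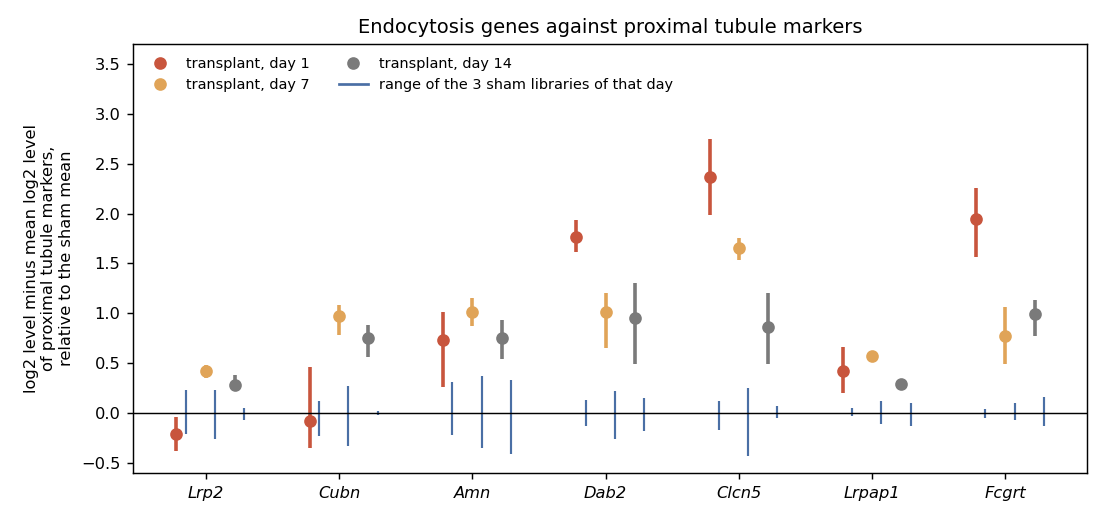
Level of each gene relative to the mean of 25 proximal tubule markers (vertical axis, difference of log2(FPKM + 1) values, 0 at the sham mean of the same day), with points for transplant means, coloured bars for the range of 3 transplant libraries and blue bars for that of 3 sham libraries. At day 1 Lrp2 and Cubn overlap the sham range, and Dab2, Clcn5 and Fcgrt stand at 1.77 to 2.37. At day 14 Lrp2 and Lrpap1 stand at 0.28 and 0.29, values that turn to -0.19 and -0.18 against the median of the markers.

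Markers of other cells also moved, and Dab2 and Fcgrt are known from such cells too. Among all tested genes 29.6%, 35.5% and 22.3% rose and 9.56%, 6.01% and 5.12% fell at the 3 days, beside which the counts of each marker list stand. All 7 markers of injured tubule cells rose at each day, and Havcr1, which encodes kidney injury molecule 1, went from 0.569 to 0.765 FPKM in sham to 808 to 1217 FPKM at day 1. Of 11 tested macrophage and leukocyte markers, 3 rose and 1 fell at day 1 and all 11 rose at day 7 and day 14. The sum over the 12 listed markers was 20.7 to 36.5 FPKM in sham, 57.2 to 59.6 at day 1, 248 to 499 at day 7 and 161 to 325 at day 14, with the T cell gene Cd3e at 0 in at least 1 library of each group. Of 8 fibroblast and pericyte markers, 6, 8 and 7 rose at the 3 days and 1 fell at day 1, and their sum was 21.3 to 38.1 FPKM in sham, 76.0 to 112 at day 1, 157 to 351 at day 7 and 171 to 233 at day 14. Of 8 endothelial markers, 5, 3 and 5 rose and 0 fell, with sums of 79.7 to 118 FPKM in sham and 131 to 185 FPKM over the transplant libraries. Of 6 podocyte markers, 3, 2 and 1 rose and 1, 1 and 0 fell, which is close to those shares for so few genes, and of 5 markers of the thick ascending limb 0 rose and 3, 1 and 1 fell. Median-of-ratios scaling left 1, 11 and 10 macrophage and leukocyte markers and 4, 7 and 7 fibroblast and pericyte markers higher, with 1, 0 and 0 of each list lower. Of the endothelial markers 1, 0 and 4 were higher under it and 1, 1 and 0 lower. Podocyte markers had 1, 1 and 0 higher and as many lower, and those of the thick ascending limb 0 higher and 3, 1 and 1 lower as deposited but 3, 3 and 1 lower under it. The shares of all tested genes under that scaling were 14.7%, 11.6% and 11.5% higher and 15.5%, 12.8% and 11.1% lower. What these cells add to Dab2, Clcn5 and Fcgrt was not tested.

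Around the receptors, genes of the endocytic coat were more often higher than lower on the deposited scale, as were all tested genes. Of all tested genes, 29.6%, 35.5% and 22.3% rose and 9.56%, 6.01% and 5.12% fell at the 3 days. Under median-of-ratios scaling the coat genes were not more often higher at day 7. Of 24 adaptor and coat genes, 15 rose and 2 fell at day 1, 13 rose and 0 fell at day 7, and 7 rose and 1 fell at day 14, with median log2 fold changes of 0.59, 0.48 and 0.26 beside 0.31, 0.41 and 0.27 for all tested genes. At day 14 the share that rose was near that of all tested genes for so few genes. Under median-of-ratios scaling 5, 4 and 3 were higher and 2, 4 and 1 lower. That scaling called 14.7%, 11.6% and 11.5% of all tested genes higher and 15.5%, 12.8% and 11.1% lower. Ap2b1, a subunit of the clathrin adaptor AP-2, measured 17.0 to 18.2 FPKM in sham and 45.0 to 54.5 FPKM in transplant at day 1, a change of 1.41 ± 0.17 on the log2 scale (SE, limma adjusted p = 3.65e-06), and passed under both scalings at each day. Gipc1, which encodes a protein that binds megalin's tail, rose by 1.68 ± 0.27 at day 1 (SE, limma adjusted p = 9.23e-05). Cltc, the clathrin heavy chain, was at 0.58 ± 0.12, and at 0.20 under median-of-ratios scaling, where it did not pass (limma adjusted p = 0.000823 and 0.234).

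Of 30 genes of endosomal sorting and recycling, 10, 9 and 5 rose at the 3 days, beside 29.6%, 35.5% and 22.3% of all tested genes, and 0 fell. The share that rose was near that of all genes, with medians of 0.27, 0.32 and 0.18, and under median-of-ratios scaling 7, 2 and 1 were higher and 1, 3 and 2 lower. Ehd4, an endosomal membrane-remodelling ATPase, rose by 1.64 ± 0.20, 1.38 ± 0.20 and 1.10 ± 0.20 on the log2 scale (SE, limma adjusted p = 5.09e-06, 4.56e-05 and 0.000664). Rab11a, a GTPase of recycling endosomes, was at 0.77 ± 0.18 at day 1 (SE, limma adjusted p = 0.00223), and at 0.40 under median-of-ratios scaling, where it did not pass (adjusted p = 0.111).

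Endosome acidification, the step in which Clcn5 acts, was mixed at day 1. Of 23 genes, 5 rose and 7 fell at day 1, 4 rose and 0 fell at day 7, and 3 rose and 2 fell at day 14, with medians of 0.03, 0.15 and -0.09. The shares over all tested genes were 29.6%, 35.5% and 22.3% higher and 9.56%, 6.01% and 5.12% lower. Under median-of-ratios scaling 2, 0 and 0 were higher and 9, 9 and 12 lower. The shares under that scaling were 14.7%, 11.6% and 11.5% higher and 15.5%, 12.8% and 11.1% lower. Slc9a3, the sodium-proton exchanger NHE3, measured 30.9 to 34.7 FPKM in sham and 8.74 to 16.0 FPKM in transplant at day 1, a fall of 1.40 ± 0.21 on the log2 scale (SE, limma adjusted p = 3.19e-05). Subunits of the proton pump went both ways, with Atp6v1a at -0.77 ± 0.12 and Atp6v1c1 at 0.81 ± 0.12 (SE, limma adjusted p = 4.74e-05 and 4.96e-05), and both passed under median-of-ratios scaling too. Clcn3, a close relative of Clcn5, was lower at day 1 and day 14, at -0.42 ± 0.13 and -0.70 ± 0.13 (SE, limma adjusted p = 0.0137 and 0.000552). At day 7 its value of -0.27 did not pass (limma adjusted p = 0.101). Clcn4, of the same gene family, did not pass at day 1 and day 7, at -0.07 and -0.02 (limma adjusted p = 0.752 and 0.929). It was lower at day 14, at -0.56 ± 0.16 (SE, limma adjusted p = 0.0139).

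Megalin's own family was followed through its other members. Of 11 tested genes of the LDL receptor family, 5 rose and 1 fell at day 1 and 7 rose and 0 fell at day 7. At day 14, 3 rose and 0 fell. The shares over all tested genes were 29.6%, 35.5% and 22.3% higher and 9.56%, 6.01% and 5.12% lower. The family's medians were 0.29, 0.54 and 0.31, beside 0.31, 0.41 and 0.27 for all tested genes. Under median-of-ratios scaling 2, 2 and 1 were higher and 3, 0 and 0 lower. The shares under that scaling were 14.7%, 11.6% and 11.5% higher and 15.5%, 12.8% and 11.1% lower. Lrp1, a broadly expressed clearance receptor, measured 1.24 to 2.17 FPKM in sham and 3.66 to 6.91 FPKM in transplant at day 1, a log2 fold change of 1.28 ± 0.27, and was at 1.83 ± 0.27 and 1.52 ± 0.27 at day 7 and day 14 (SE, limma adjusted p = 0.00111, 5.28e-05 and 0.000497). Lrp6, a coreceptor of Wnt signalling, fell by 0.59 ± 0.13 at day 1 (SE, limma adjusted p = 0.00163). Both have levels well below that of Lrp2 in sham.

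Ligands and partners moved in both directions. Of 18 tested genes, 5 rose and 7 fell at day 1, 7 rose and 6 fell at day 7, and 4 rose and 4 fell at day 14. The medians were -0.22, 0.30 and -0.06. The shares over all tested genes were 29.6%, 35.5% and 22.3% higher and 9.56%, 6.01% and 5.12% lower. Under median-of-ratios scaling 3, 5 and 4 were higher and 8, 7 and 8 lower. The shares under that scaling were 14.7%, 11.6% and 11.5% higher and 15.5%, 12.8% and 11.1% lower. B2m, the light chain that the Fcgrt product needs, measured 117 to 157 FPKM in sham and 201 to 266 FPKM in transplant at day 1, and 144 to 206 and 381 to 571 FPKM at day 7. Its log2 fold changes were 0.73 ± 0.17, 1.37 ± 0.17 and 1.49 ± 0.17 at the 3 days (SE, limma adjusted p = 0.00287, 1.06e-05 and 8.13e-06), and the day 1 value did not pass with median-of-ratios scaling (0.35, limma adjusted p = 0.16). B2m is also the light chain of class I molecules in most cells. Selenop, a selenium carrier taken up through megalin, fell at each of the 3 days. Its log2 fold changes were -1.03 ± 0.12, -1.99 ± 0.12 and -1.41 ± 0.12 (SE, limma adjusted p = 1.54e-06, 8.91e-10 and 1.66e-07). Lcn2, a megalin ligand and an injury marker, measured 0.0763 to 0.203 FPKM in sham and 227 to 366 FPKM in transplant at day 1.

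Of 13 lysosomal genes, which act after uptake, 6, 6 and 4 rose and 1, 0 and 0 fell, with medians of 0.06, 0.34 and 0.12. The shares over all tested genes were 29.6%, 35.5% and 22.3% higher and 9.56%, 6.01% and 5.12% lower. Under median-of-ratios scaling 4, 1 and 1 were higher and 5, 5 and 3 lower. The shares under that scaling were 14.7%, 11.6% and 11.5% higher and 15.5%, 12.8% and 11.1% lower. Ctsd, the protease cathepsin D, measured 152 to 169 FPKM in sham and 392 to 519 FPKM in transplant at day 1, and its log2 fold changes were 1.45 ± 0.13, 1.83 ± 0.13 and 1.22 ± 0.13 (SE, limma adjusted p = 1e-07, 1.14e-08 and 3.05e-06). Cathepsins are also made by macrophages, whose markers rose at day 7 and day 14. Their part in these values was not tested.

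**Figure D5:**
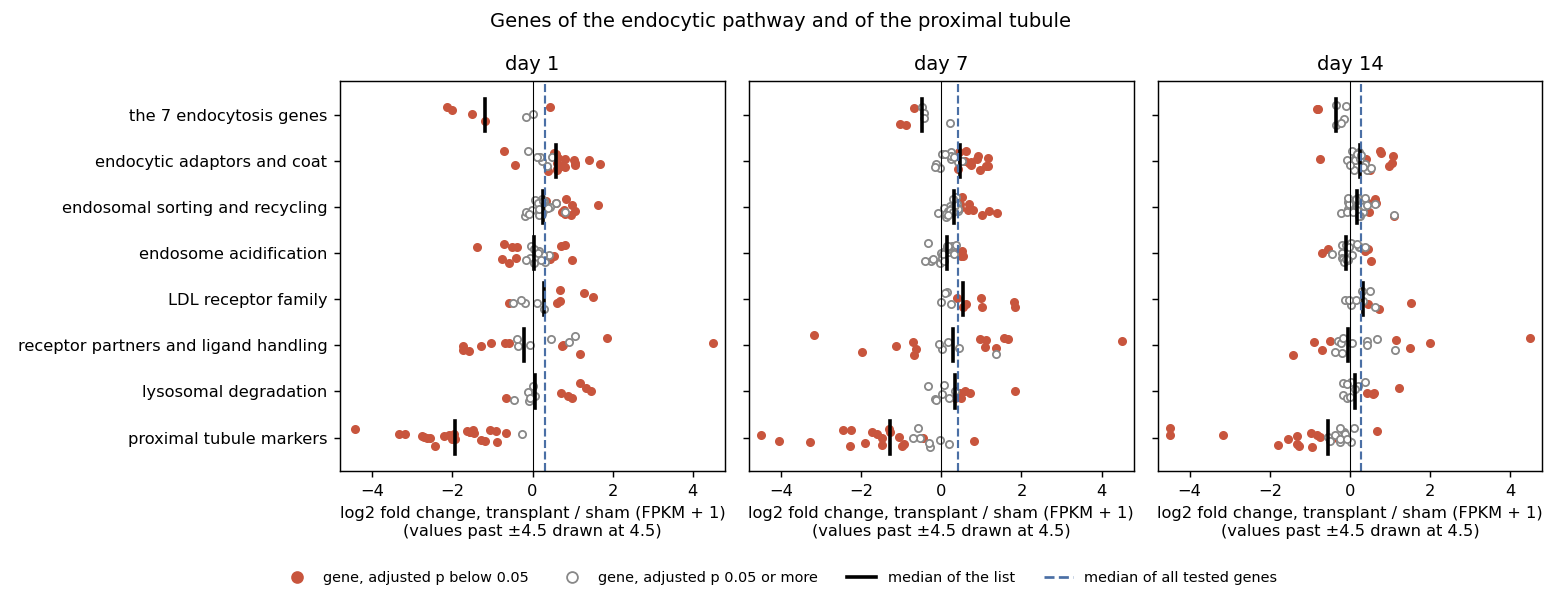
Log2 fold change of transplant over sham (horizontal axis) for every tested gene of the 7 and of the lists around them at day 1, day 7 and day 14, red where the limma adjusted p was below 0.05, with a black bar at each list's median and a dashed line at that of all tested genes. The 7 genes and the proximal tubule markers have medians below 0 at each day, and the coat, sorting and LDL receptor family lists have medians above 0 on this scale, of which those of the sorting list (-0.07 to -0.13), of the coat list at day 14 (-0.04) and of the LDL receptor family at day 1 (-0.01) turn below 0 under median-of-ratios scaling.

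As a description, each of the 7 was set beside the 7940 genes whose FPKM averaged 5 or more over the 18 libraries by the Pearson correlation of log2 levels, which here mostly reflects how the 6 groups differ and shares each library's scaling. Lrp2 was most like Sord, Slc6a20b, Slc34a1 and Abat (r of 0.977 to 0.98). Cubn was most like Slc13a3, Slc5a12, Fmo1 and Hlf (r of 0.967 to 0.98). Lrpap1 was most like Cbs, Haao, Sardh and Abhd14b (r of 0.976 to 0.979), and Amn was most like Dnajc19, Tm2d2, Chchd10 and Atp5b (r of 0.917 to 0.944). The best matches of Clcn5 (Sh3bgrl2, Sec24a, Fam102b and Eif4g2, r of 0.832 to 0.892), Fcgrt (Slc26a1, Aldh3a2, Slc18a1 and Ces2d-ps, r of 0.79 to 0.875) and Dab2 (Mrpl39, Thrb, Mtrex and Gclm, r of 0.689 to 0.74) were weaker. Among the 7 themselves, r was 0.947 between Lrp2 and Cubn, 0.93 between Lrp2 and Lrpap1 and 0.786 between Lrp2 and Amn, and 0.288, 0.13 and -0.512 between Lrp2 and Dab2, Fcgrt and Clcn5.

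Depth is unknown, since the values are FPKM, whose sums ran from 386928 to 524435 per library. Transcripts of the mitochondrial chromosome took 28.8% to 31.5% of the sum in sham and 14.4% to 27.7% in transplant. Dab2 and Cubn each overlap a gene on the opposite strand, over 2.87% and 2.46% of their exon bases. Those genes, Gm18888 and Gm13270, reached at most 0.94 and 1.09 FPKM, and no source used here says whether counting used strand.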

How the data were processed

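The authors deposited 1 table of FPKM for every gene in each library. DESeq2 (its role not said) and the build mm10 are named in the submitters' processing notes. No source used here gives the aligner, the quantifier or the annotation. Of the low values, 12.7% to 15.3% per library came within 0.05 of a whole number of fragments, so no reads were recovered. Capital A and N are missing from symbols and identifiers (Amn is written mn). Identifiers were restored, and 54819 of 54848 were found in GENCODE M21 on GRCm38. Repeated identifiers (17 rows) were left out, and no pair of libraries held the same values.

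After the filter (FPKM of 1 or more in 3 or more libraries, 15278 genes), log2(FPKM + 1) was modelled with limma 3.58.1 (R 4.3.3), using a mean for each of 6 groups and robust moderation that follows the mean. Adjusted p-values are Benjamini-Hochberg values over all tested genes within a contrast, called below 0.05. The step was tested on simulated data. Tables used Python 3.11.15 and figures matplotlib 3.10.9. Replicate numbers were not used as pairs in the main fit. Same-numbered sham and transplant libraries correlated at -0.0409 to 0.101 in their deviations from group means. Differently numbered libraries were not compared, so this cannot show whether libraries were handled as pairs.

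The 7 genes, the gene lists and the tests were chosen with earlier results of these data known. Named are the 7 genes, in each list at each day the called genes of smallest adjusted p (3 at most), a panel of pathway and marker genes, and the 4 genes most like each of the 7. Some genes picked by this rule are not reported here. Other settings tried were a pseudocount of 0.1 or 5, testing all genes or those averaging 5 FPKM or more, median-of-ratios, quantile and TPM scaling, FPKM rescaled without mitochondrial genes, moderation that was not robust, array weights, fits to only the groups compared, the replicate block and each library left out in turn.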

Additional observations from a re-analysis of the deposited data

Results flagged for a closer look

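The effect of transplantation differed between days for 2 of the 7 genes, by limma's test of the difference itself. Of all tested genes, 4.37% differed between day 7 and day 1, 10.3% between day 14 and day 1 and 0.615% between day 14 and day 7. For Cubn the log2 fold change was 1.66 higher at day 14 than at day 1 and 1.53 higher at day 7 than at day 1, that is, closer to sham. For Lrp2 it was 1.32 higher at day 14 than at day 1. The difference for Lrp2 passed under all 30 other settings tried, and the day 14 difference for Cubn passed in all but 2 of them, no filter on low values (limma adjusted p = 0.0544) and array weights (1.31, limma adjusted p = 0.0578). The day 7 difference for Cubn did not pass under 4 of the 12 settings that kept all libraries, nor with any one of 9 libraries left out (1.2 to 1.6, limma adjusted p of 0.0529 to 0.128 over these).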

How the results depend on the processing

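The falls of Lrp2, Cubn, Amn and Lrpap1 at day 1, of Lrp2, Lrpap1 and Fcgrt at day 7 and of Lrpap1 at day 14 passed under all 12 other settings and with any single library left out, and that of Lrp2 at day 14 under the 12 settings and with any one of 17 of the 18 libraries left out. The replicate block moved no count of called genes among the 7 at any day, and among the 6 ratios to Lrp2 it ended 1 call, that of Lrpap1 (0.26, adjusted p = 0.0703). With it 5 macrophage and leukocyte markers rose at day 1 and 0 podocyte markers at day 14, and 4 other list counts shifted by 1 gene. Median-of-ratios scaling gave 6 called of the 7 at day 7 and 5 at day 14, and 3729 genes at day 7, as against 3617 under quantile normalization. A mean FPKM of at least 5 gave 2708 genes at day 14. Among the 7, the effect differed between day 7 and day 1 for 0 with no filter or only the groups compared, 3 with a mean FPKM of at least 5, and 2 under quantile normalization, TPM scale or without mitochondrial genes. Between day 14 and day 1 it differed for 1 with no filter or array weights and 4 with a mean FPKM of at least 5, quantile normalization or without mitochondrial genes. The shares of all tested genes for these differences were 4.37% and 10.3% in the main fit. Under the other settings the shares are not given here, so these counts stand without a background. With 1 library left out, called genes among the 7 numbered 3 to 5 at day 7 and 1 to 2 at day 14, those whose effect differed between day 7 and day 1 numbered 0 to 2, and the ratio of Lrpap1 to Lrp2 changed by 0.21 to 0.32. No fold change that turned in sign passed as deposited or under the setting that turned it. These were Dab2 and Fcgrt at day 14 on the TPM scale (0.028 and 0.065), Clcn5 at day 7 under median-of-ratios scaling, quantile normalization and without sham replicate 3 (-0.26, -0.15 and -0.012, within a range of -0.012 to 0.35 over the libraries left out), and Fcgrt at day 1 under median-of-ratios scaling, quantile normalization, without mitochondrial genes, and without sham replicate 2 or transplant replicate 1 (-0.36, -0.068, -0.0020, -0.0078 and -0.020, within -0.020 to 0.059 over the libraries left out). Against the median of the proximal tubule markers, a comparison chosen after seeing the data, the levels of Lrp2 and Lrpap1 at day 14 turned to -0.19 and -0.18. The cause of these changes was not tested. Of 29 named values of other genes, 26 passed under every setting they were tested under and with any library left out. Cltc, Rab11a and B2m at day 1 did not under median-of-ratios scaling. The values of Selenop at day 1, of Clcn3 at day 1 and day 7 and of Clcn4 were not among the 29. Depth is unknown and 3 libraries per group limit the precision.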
